A study of Mus musculus with 6 samples.

Results

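The 34 genes described here are the working parts of chromosome copying and chromosome separation, taken from a fixed list of symbols. They fall into 15 S phase genes (Mcm2, Mcm3, Mcm4, Mcm5, Mcm6, Mcm7, Pcna, Rrm1, Rrm2, Tyms, Gins2, Cdc6, Cdc45, Ung and Slbp) and 19 G2/M genes (Mki67, Top2a, Ccnb1, Ccnb2, Cdk1, Cenpf, Cenpe, Cenpa, Ube2c, Plk1, Aurka, Aurkb, Birc5, Bub1, Tpx2, Nusap1, Hmmr, Kif11 and Cdc20). All 34 were found among the 31053 genes listed in the libraries. They lie on 15 chromosomes, with Mcm5 at chr8:75109569-75128439, Rrm2 at chr12:24708241-24714146, Plk1 at chr7:122159439-122169873, Top2a at chr11:98992943-99024189, Ccnb1 at chr13:100778650-100786570 and Bub1 at chr2:127801122-127831865 (GENCODE vM21, GRCm38), and each of the 34 is annotated there as a protein-coding gene.

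As background, the Mcm proteins, Cdc45 and Gins2 form the helicase that opens DNA, Cdc6 loads it onto origins, and Pcna is the clamp that holds polymerases on the template. Rrm1, Rrm2 and Tyms supply deoxynucleotides, Ung removes uracil from DNA and Slbp binds the ends of replication-dependent histone mRNAs. Cdk1 with its cyclins Ccnb1 and Ccnb2 starts mitosis, the kinases Plk1, Aurka and Aurkb and the motors Kif11 and Cenpe build and use the spindle, Bub1 belongs to the spindle checkpoint, and Cdc20 and Ube2c drive the ubiquitin-dependent exit from it. In the fetal ovary the germ cells divide by mitosis, copy their DNA a last time, and enter the prophase of meiosis in an asynchronous wave, while cells of the supporting lineage slow their division as they differentiate into pregranulosa cells.

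The data were single-cell RNA libraries made with the 10x Chromium 3′ v2 chemistry, in which unique molecular identifiers (UMIs) count captured RNA molecules. There were 5 libraries of XX gonad from ICR mouse embryos, E10.5, E11.5, E12.5, E13.5 and E14.5 by label. The sixth library, Induced D6, held gonad somatic cells derived from embryonic stem cells of the background 129svj x C57BL/6J. Aggregates of these cells passed through 3 media for 2 days apiece, first with CHIR, BMP4 and EGF, then with PD0325901, Retinoic acid, SHH, BMP4 and EGF, and last with BMP4 and FGF9. No other treatment, allele or transgene is named. Each stage and the culture was represented by 1 library, and the numbers of embryos pooled and of cultures are not given in the labels. No comparison below therefore has a replicate check, and no p-value is given. Every interval is a 95% interval for counting error alone. Induced D6 differs from the embryonic libraries in strain, in origin and in being cultured, and these cannot be told apart.

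Total UMIs ran from 37606947 to 52146419 per library, and 2661 to 7067 cells were kept in each, at median depths from 6184 to 11843 UMIs per cell. Clusters were named from marker genes with the cell cycle genes left out of the clustering, so the names end in "-like". Germ cell-like clusters were led by germline genes such as Dppa5a, Dppa3, Pou5f1 and Dazl at E11.5 and by Stra8, Sycp1, Prdm9 and Smc1b at E14.5, and held 18, 311, 581, 1396 and 1162 cells in stage order. The 49 cells of Induced D6 with this name carried both pluripotency and germ cell markers, and 33 of them were too shallow to be thinned, so they are not compared. Gonadal epithelium is used here for the supporting-like clusters (Fst, Foxl2, Irx3 and Gng13 among their markers), the coelomic-like clusters (Upk3b, Lhx9, Krt19) and 1 cluster of E13.5 that carried both names. It held 485, 1391, 1701, 1898 and 1648 cells in stage order, and 3613 in the culture. At E10.5 all 485 were coelomic-like, and no supporting-like cluster was found. Between 4.64% and 32.6% of the kept cells of a library stayed unnamed. The E13.5 and E14.5 libraries shared 114 cell barcodes, 2.44% of the smaller library, against 0.576% to 1.12% for the other pairs. They touched 4 to 14 cells of the epithelial, germ cell-like and stroma-like classes of either library. Without them the counts and shares of epithelial and germ cell-like cells compared between E14.5 and E11.5 or E12.5 kept their direction, and stroma-like cells were not recomputed.

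The regions just upstream of the members' transcription starts were read to show which letters the 2 groups of genes share. The sequences are from RefSeq (GRCm38.p6), whose promoter table held a window of 250 bases before to 50 bases after the start for 30 of the 34 members. The windows were searched on both strands for 3 motifs. The cell cycle genes homology region, CHR (TTTGAA or TTCGAA), is the element bound by the MuvB complexes DREAM and MMB. The E2F element was searched as TTNNCGC with each N either C or G, and matches on opposite strands of a palindromic site overlap. CCAAT is the element bound by NF-Y. Stretches of 150 bases are shown for 5 G2/M genes that the results turn on and whose CHR matches lie in or near the stretch, for Bub1, which moved against the others in germ cells, and for 2 S phase genes with E2F matches. Capitals mark CHR and CCAAT matches in the G2/M genes and E2F and CCAAT matches in the S phase genes. Each stretch is written 5′ to 3′ along the gene's own strand and ends at the base before the annotated start.
Cdc20, the activator of the anaphase-promoting complex, chr4:118437344-118437493, minus strand: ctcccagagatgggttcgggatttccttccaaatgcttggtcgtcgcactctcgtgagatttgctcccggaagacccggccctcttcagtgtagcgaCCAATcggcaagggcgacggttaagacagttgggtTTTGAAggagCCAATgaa
Ube2c, a ubiquitin-conjugating enzyme of the same complex, chr2:164769779-164769928, plus strand: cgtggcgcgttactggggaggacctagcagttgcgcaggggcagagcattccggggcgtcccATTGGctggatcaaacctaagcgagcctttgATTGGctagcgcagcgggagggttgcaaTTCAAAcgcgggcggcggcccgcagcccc
Cdk1, the mitotic kinase, chr10:69352913-69353062, minus strand: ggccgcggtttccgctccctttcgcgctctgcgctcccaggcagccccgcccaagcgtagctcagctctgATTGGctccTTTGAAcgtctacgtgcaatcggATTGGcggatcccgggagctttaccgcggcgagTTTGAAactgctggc
Top2a, topoisomerase II alpha, chr11:99024190-99024339, minus strand: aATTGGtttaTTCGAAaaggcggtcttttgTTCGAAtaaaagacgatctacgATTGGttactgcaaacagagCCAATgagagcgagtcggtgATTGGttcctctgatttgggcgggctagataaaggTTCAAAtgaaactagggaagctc
Mki67, the coat protein of mitotic chromosomes, chr7:135716380-135716529, minus strand: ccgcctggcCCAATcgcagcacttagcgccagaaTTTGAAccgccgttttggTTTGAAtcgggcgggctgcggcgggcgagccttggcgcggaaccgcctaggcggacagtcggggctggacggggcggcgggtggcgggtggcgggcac
Bub1, the checkpoint kinase, chr2:127831860-127832009, minus strand: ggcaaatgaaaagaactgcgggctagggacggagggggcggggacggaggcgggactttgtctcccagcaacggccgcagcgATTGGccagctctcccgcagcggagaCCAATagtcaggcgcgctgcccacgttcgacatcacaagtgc
Mcm6, a helicase subunit, chr1:128359706-128359855, minus strand: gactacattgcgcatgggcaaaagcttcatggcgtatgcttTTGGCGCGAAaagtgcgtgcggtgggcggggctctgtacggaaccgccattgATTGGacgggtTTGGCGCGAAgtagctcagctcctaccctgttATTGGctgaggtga
Rrm1, the large subunit of ribonucleotide reductase, chr7:102441545-102441694, plus strand: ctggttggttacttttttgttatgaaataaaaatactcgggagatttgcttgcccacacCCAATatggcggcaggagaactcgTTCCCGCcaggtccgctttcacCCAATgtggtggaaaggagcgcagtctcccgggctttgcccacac

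A CHR match was present in the windows of 13 of the 17 G2/M members with a window (76.5%) and of 3 of 13 S phase members (23.1%), against 19.4% of all 27025 genes with a window. An E2F match was present in 7 of 13 S phase members (53.8%) and 4 of 17 G2/M members (23.5%), against 9.69% of all genes. CCAAT was found in 15 of 17 G2/M members (88.2%) and 10 of 13 S phase members (76.9%), against 37.9% of all genes. The G2/M members with a window but no CHR match were Ccnb1, Cenpe, Birc5 and Nusap1. The match of Bub1 lies past its start, outside the stretch printed. These matches describe letters in a fixed window and are not measured binding sites.

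The share of cycling cells in the gonadal epithelium was highest at E10.5 and low at E13.5 and E14.5. A cell was called S-high or G2/M-high when it held at least 5 UMIs summed over the 15 S phase or the 19 G2/M members after every cell was thinned to 3000 UMIs. The G2/M-high share of the 5 stages was, in order, 60.8% (56.2 to 65.2), 22.6% (20.4 to 24.9), 18.5% (16.6 to 20.4), 4.83% (3.91 to 5.90) and 5.86% (4.74 to 7.15). The S-high share followed the same order of stages with 72.0% (67.8 to 76.0), 26.9% (24.6 to 29.3), 18.4% (16.6 to 20.4), 2.87% (2.16 to 3.72) and 2.25% (1.57 to 3.12). Without thinning, where deeper libraries show more UMIs per cell, the G2/M-high shares were 81.4%, 37.0%, 26.8%, 10.4% and 10.4%, and the S-high shares 94.9%, 86.3%, 73.2%, 32.6% and 21.1%. Erythroid-like cells, few in number, held G2/M-high shares of 39.5%, 23.4%, 0%, 16.7% and 31.0% by stage. The 0% is 0 of 22 cells at E12.5, which allows a share of up to 13.6%, so no named class served as a background without these RNAs. Unnamed cells of E12.5 held 0 of 226 G2/M-high cells, which allows up to 1.33%, and 36.9 CPM summed over the G2/M members. They included a cluster of 154 cells with 10 of the 13 supporting markers, which is not counted in the epithelium.

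**Figure D1:**
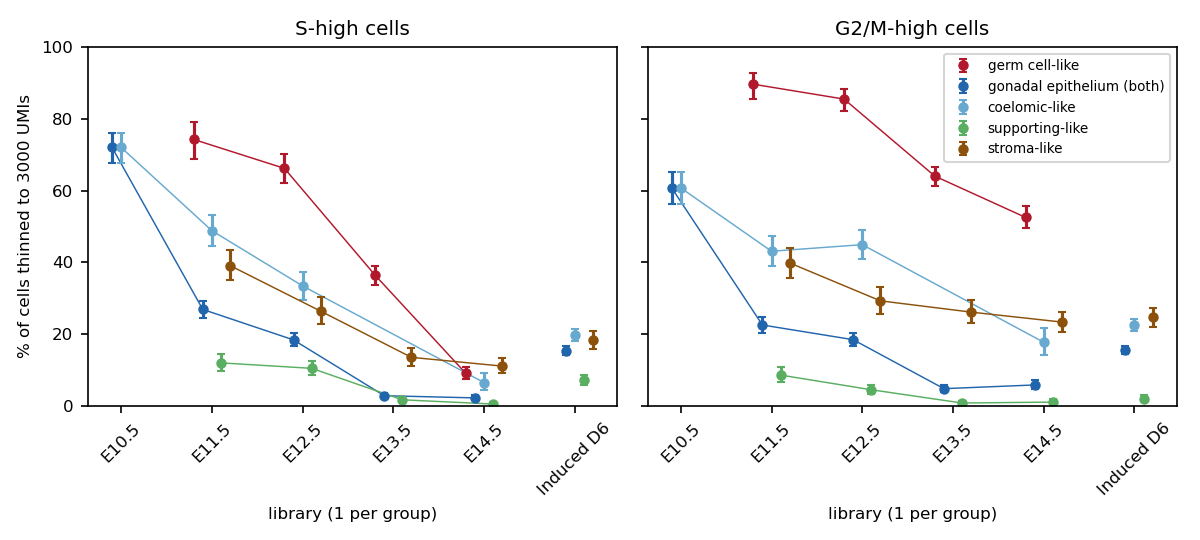
Share of cells (percent) that held at least 5 UMIs of the 15 S phase members (left) or the 19 G2/M members (right) after thinning to 3000 UMIs, by library and class, with exact 95% binomial intervals for counting error, lines joining the embryonic libraries. The gonadal epithelium falls from 60.8% to 5.86% G2/M-high between E10.5 and E14.5, while germ cell-like cells fall from 89.6% at E11.5 to 52.5% at E14.5.

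In sums over the whole epithelium the fall took place in 2 separate steps, E10.5 to E11.5 and E12.5 to E13.5. No member was called between or after them. A gene was compared when it reached 10 CPM (its UMIs relative to all UMIs of the class) in either class sum, and was called when the sums differed at least 2-fold. From E10.5 to E11.5, 17 of 34 members were lower, 6 of the S phase and 11 of the G2/M genes, where 7.50% of all genes tested were lower. Their median log2 ratio was -1.002 against -0.07 for all genes. The E10.5 sum held coelomic-like cells alone and the E11.5 sum also 828 supporting-like cells, so the 2 sums differ in makeup. In coelomic-like cells alone the G2/M members summed to 2994, 2726 and 2628 CPM at E10.5, E11.5 and E12.5. The S phase members of these cells summed to 2250, 1749 and 1257 CPM, and their S-high share was 72.0%, 48.8% and 33.45%. In these cells the S phase members thus also fell from E11.5 to E12.5, between the 2 steps. Over the whole epithelium, from E11.5 to E12.5, 0 of 33 were lower (1.29% of all genes). Of the 33, 28 had log2 ratios below 0, and the intervals of the S-high shares lay apart. From E12.5 to E13.5, 27 of 32 were lower, 9 of 13 S phase and 18 of 19 G2/M genes (6.85% of all genes), with a median of -1.64 against -0.11. From E13.5 to E14.5, 0 of 26 were lower (0.237% of all genes).

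The individual members differed in how closely they followed these 2 steps. Plk1, the polo-like kinase, measured 84.7, 36.7, 28.8, 3.76 and 5.24 CPM over the 5 stages in order, and was 7.67-fold lower at E13.5 than at E12.5. Cdk1 measured 202, 97.8, 78.7, 17.5 and 17.5 CPM. Both mitotic regulators kept their lowest levels at the last 2 stages. Rrm2, the small and cell cycle-regulated subunit of ribonucleotide reductase, measured 364, 108, 62.2, 21.6 and 16.1 CPM, falling 3.37-fold in the first of the 2 steps. Pcna measured 133, 48.7, 50.4, 15.4 and 14.6 CPM. Mcm5 declined over more stages, with 155, 84.1, 66.5, 44.5 and 33.1 CPM. The 5 members that did not reach the threshold in the second step were Mcm4 (1.92-fold lower), Cenpa, the centromeric histone (1.78-fold), Ung (1.74-fold), Mcm5 (1.49-fold) and Slbp (1.24-fold), and Cdc6 and Cdc45 were under 10 CPM at both stages. These are sums over a class. Fewer cycling cells, less RNA per cycling cell and a changed makeup of the class cannot be told apart in them. In coelomic-like cells alone Rrm2 measured 364 CPM at E10.5 and 213 CPM at E11.5.

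From E11.5 to E14.5 as a whole, 31 of 33 members compared were lower in the gonadal epithelium, 13 of 14 S phase and 18 of 19 G2/M genes, where 14.2% of all genes were lower. The median of the members was -1.79 and that of all genes -0.16. Cdc20 was 8.10-fold lower, Plk1 7.01-fold, Rrm2 6.73-fold, Ccnb1 6.25-fold and Cdk1 5.60-fold. Top2a was 3.01-fold lower, Mcm5 2.54-fold and Mki67, the marker of dividing cells, 2.26-fold. Slbp (151 and 103 CPM) and Cenpa (113 and 57.6 CPM, 1.97-fold) did not reach 2-fold, and Cdc6 was under 10 CPM at both stages. From E12.5 to E14.5, the span used for germ cells below, 28 of 32 members were lower (8.16% of all genes).

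**Figure D2:**
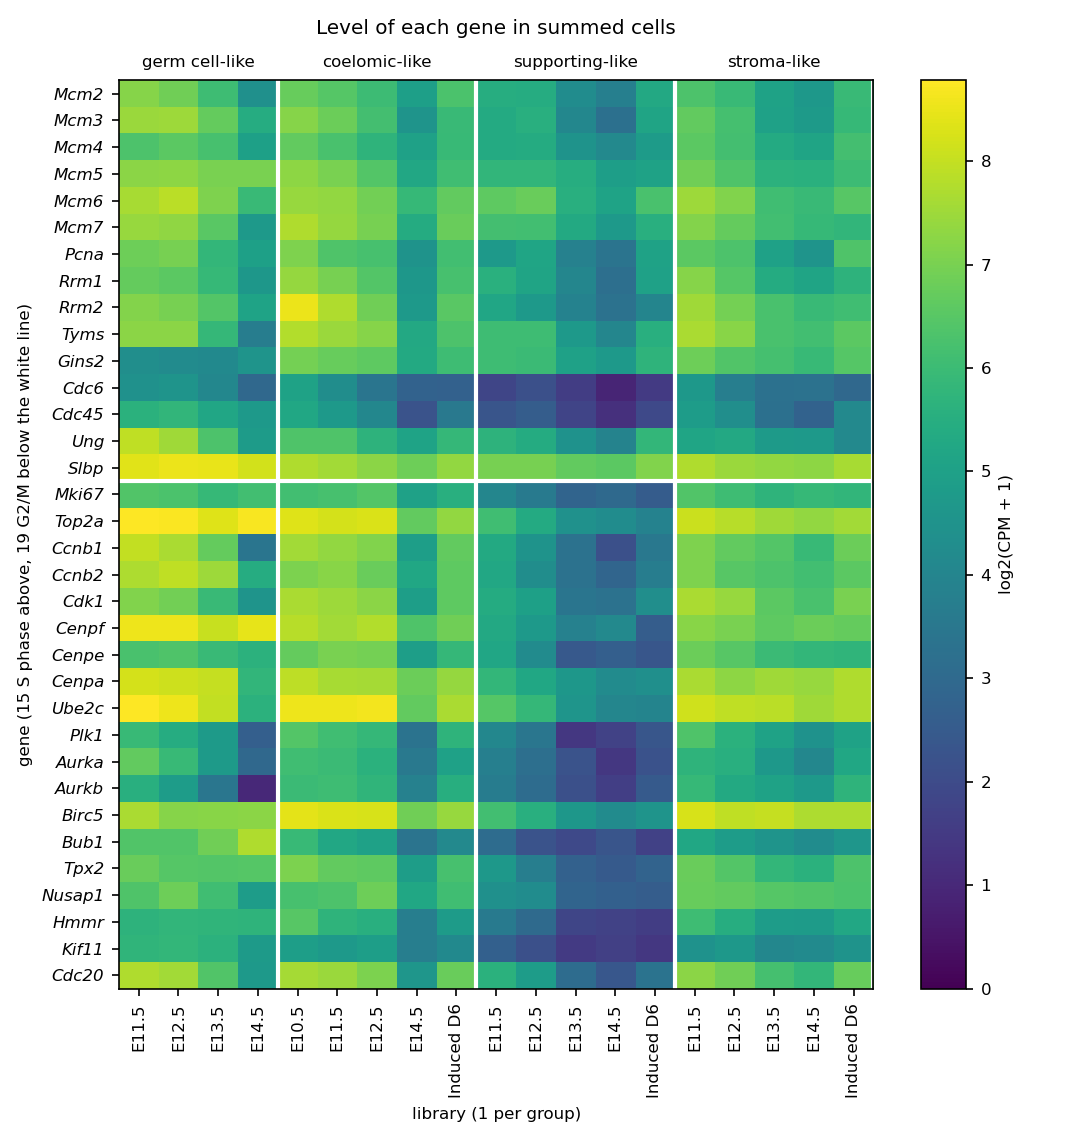
Heat map of log2(CPM + 1) for the 34 members (S phase and G2/M genes in separate blocks) in germ cell-like, coelomic-like, supporting-like and stroma-like cells of each library, germ cell-like cells of E10.5 and Induced D6 left out. Low levels are dark and high levels bright. Supporting-like columns are darker than the coelomic-like columns of the same libraries for the G2/M genes. The germ cell-like columns stay bright for Top2a, Cenpf and Bub1 at E14.5 while Ccnb1, Plk1 and Aurkb turn dark.

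Within the epithelium the members were concentrated in the coelomic-like cells, a class named from markers and not from position in the gonad. At E11.5 the G2/M-high share was 43.1% (39.0 to 47.3) in coelomic-like and 8.62% (6.79 to 10.7) in supporting-like cells. At E14.5 it was 17.8% (14.3 to 21.6) and 1.08% (0.561 to 1.88). The intervals of the 2 stages lay apart in both classes. For supporting-like cells they overlapped under some of the 7 ways of making the classes. With no doublets removed the shares were 0.975% at E11.5 and 0.895% at E14.5. At clustering resolution 2 they were 1.40% and 1.08%, and with all barcodes kept 2.62% (1.562 to 4.115) and 1.15% (0.616 to 1.964). Across the 7 ways of making the classes, the supporting-like share ranged from 0.975% to 8.62% at E11.5 and from 0.372% to 1.25% at E14.5, and the coelomic-like share from 40.2% to 49.1% at E11.5. At E14.5 a coelomic-like class was found under 4 of these ways, with shares from 4.35% to 19.1%. The supporting-like class was first found at E11.5, and coelomic-like cells alone held 60.8% G2/M-high cells at E10.5 and 43.1% at E11.5, a smaller step than that of the whole epithelium.

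All 19 G2/M members were at least 2-fold lower in supporting-like than in coelomic-like cells in the E11.5 and E12.5 libraries, while S phase members were split. At E11.5, 28 of 34 members were lower (9 of 15 S phase genes), where 9.13% of all genes were lower. At E12.5, 24 of 33 were lower (5 of 14 S phase genes; 7.21% of all genes), and at E14.5, 24 of 30 (7 of 13 S phase and 17 of 17 G2/M genes; 5.35% of all genes). Top2a measured 67.03, 40.7, 20.8 and 18.1 CPM in supporting-like cells in stage order, and 297, 310 and 102 CPM in coelomic-like cells at E11.5, E12.5 and E14.5. Mcm6 was closer between the classes, with 96.7 and 108 CPM in supporting-like against 162 and 118 CPM in coelomic-like cells of the same 2 libraries, E11.5 and E12.5. The largest differences at E11.5 were in Cdc6 (7.46-fold), Cdc45 (6.34-fold) and Rrm2 (5.98-fold), and the smallest in Ung (1.61-fold) and Slbp (1.52-fold). Top2a was 4.42-fold lower at E11.5, and 4.42-fold to 15.5-fold lower over the 7 ways of making the classes, with 28 to 31 members called. Clustering left out the members, but 1 coelomic-like cluster of E11.5, with 216 cells, still had Top2a and Ube2c among its 10 leading genes. The median depth of G2/M-high cells was also above that of the other cells of the epithelium, 16236.5 against 10924 UMIs at E11.5. Its part in the result was not tested, although all shares are at equal depth after thinning.

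In the stroma-like cells (Pdgfra, Tcf21 and collagen genes among their markers) all 34 members had log2 ratios below 0 between E11.5 and E14.5. The G2/M-high share, starting at E11.5, was 39.9%, 29.3%, 26.2% and 23.4% by stage, and the S-high share 39.1%, 26.4%, 13.6% and 11.1%. From E11.5 to E14.5, 22 of 34 members were lower, 12 S phase and 10 G2/M genes, where 15.4% of all genes were lower, with a median log2 ratio of -1.22 against -0.35 for all genes. From E12.5 to E14.5, 13 of 34 members were lower, 9 S phase and 4 G2/M genes, where 7.52% of all genes were lower. Pcna fell from 80.04 to 22.1 CPM, Mcm3, a helicase subunit, from 71.7 to 26.9 CPM and Plk1 from 47.9 to 21.4 CPM. Mki67 measured 65.5 and 57.9 CPM and Birc5, the chromosomal passenger protein survivin, 245 and 209 CPM.

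Germ cell-like cells stood above the epithelium of their own library for most members. At E11.5, 18 of 34 members were at least 2-fold higher (18.2% of all genes), and Gins2, described below, was lower. At E12.5, 22 of 34 were higher, 11 of each group (20.3% of all genes), and 1 was lower (25.6% of all genes). At E13.5, 31 of 33 were higher (30.5% of all genes). These ratios depend on the makeup of the epithelium, which held more supporting-like than coelomic-like cells. At E11.5 the G2/M members summed to 3294 CPM in germ cell-like, 2726 CPM in coelomic-like and 643 CPM in supporting-like cells. At E12.5 they summed to 3044, 2628 and 404 CPM, and the S phase members to 2074, 1257 and 757 CPM. Cdc45 was 5.71-fold, Bub1 5.55-fold and Ccnb2 4.50-fold higher in germ cell-like cells at E12.5. The exception was Gins2, a subunit of the GINS complex, with 17.8 CPM in germ cell-like and 76.3 CPM in epithelial cells at E12.5, 4.29-fold lower (3.67 to 5.03). It was lower in germ cell-like cells at E11.5 and E13.5 as well (19.5 against 82.0 CPM, and 17.1 against 35.2 CPM), although Cdc45, its partner in the helicase, was higher.

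At E14.5 this picture divided. Of 30 members compared, 17 were higher in germ cell-like cells, 6 of 14 S phase and 11 of 16 G2/M genes (30.5% of all genes), and 1 was lower (30.5% of all genes). Bub1 was 33.8-fold higher (27.4 to 42.3), Cdc45 10.9-fold, Cenpf, a kinetochore and centromere protein, 7.96-fold, Hmmr 7.70-fold and Top2a 7.69-fold. Tyms was 2.09-fold lower, and Ube2c (48.6 and 51.3 CPM), Cenpa (54.4 and 57.6 CPM) and Mcm2 (20.2 and 20.1 CPM) were at closely similar levels in both classes. Plk1, Aurka, Aurkb and Cdc6 were under 10 CPM in both classes.

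Between E12.5 and E14.5 the members came apart in germ cell-like cells: 23 fell at least 2-fold, with Aurkb, Ccnb1 and Tyms the furthest, 10 stayed within 2-fold, among them Top2a, Cenpf and Mcm5, and Bub1 rose. Of the 34 members 23 were lower, 12 of 15 S phase and 11 of 19 G2/M genes, where 22.3% of all genes were lower, and 1 was higher, where 27.8% were. The median log2 ratio was -1.95 for the members and 0.14 for all genes. The timing of this change differed between members. From E11.5 to E12.5, 0 of 34 were lower (1.51% of all genes). From E12.5 to E13.5, 6 of 34 were lower (5.24% of all genes), namely Pcna, Tyms, Ung, Aurka, Aurkb and Cdc20. From E13.5 to E14.5, 19 of 33 were lower, 10 of 15 S phase and 9 of 18 G2/M genes (17.8% of all genes).

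**Figure D3:**
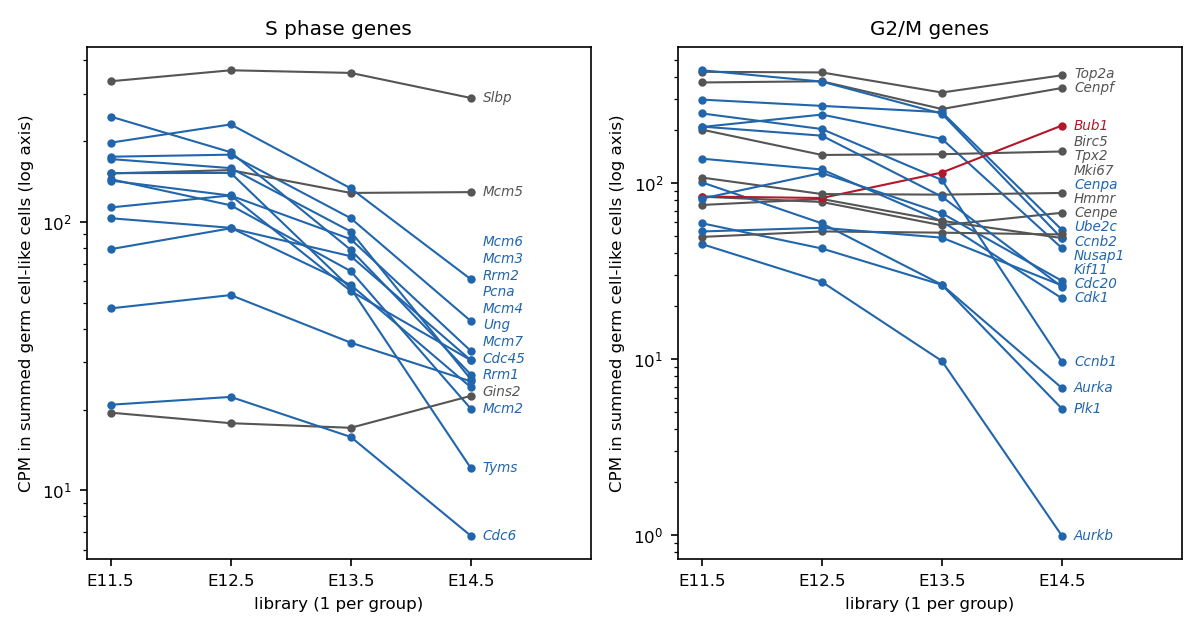
CPM (log axis) of each member in germ cell-like cells from E11.5 to E14.5, blue for members at least 2-fold lower at E14.5 than at E12.5, red for the member at least 2-fold higher and grey for the rest. Ccnb1 drops from 204 to 9.67 CPM and Aurkb from 27.6 to 0.994 CPM, while Bub1 climbs from 82.5 to 213 CPM.

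Among the G2/M members the largest falls were in Aurkb and Ccnb1. Aurkb, the kinase of the chromosomal passenger complex, measured 45.2, 27.6, 9.79 and 0.994 CPM at the 4 stages starting with E11.5, a fall of 27.8-fold from E12.5 (15.3 to 56.2) that rests on 11 UMIs at E14.5. Ccnb1 measured 250, 204, 105 and 9.67 CPM, and was 21.1-fold lower (17.3 to 25.8). Plk1 measured 59.4, 42.6, 26.5 and 5.24 CPM, 8.14-fold lower (6.18 to 10.9). Each of these declined at every stage after E11.5. Ube2c measured 439, 379, 249 and 48.6 CPM, 7.79-fold lower (7.11 to 8.54), and Cdc20 measured 210, 187, 84.0 and 25.8 CPM, 7.22-fold lower (6.37 to 8.20). Ccnb2 was 5.74-fold and Cdk1 5.39-fold lower, and both still stood above 20 CPM at E14.5, with 42.8 and 22.2 CPM. Aurka, the centrosomal kinase, was 8.63-fold lower, Cenpa 5.07-fold and Nusap1, a spindle microtubule protein, 4.11-fold.

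Other G2/M members moved little. Top2a measured 430, 427, 328 and 411 CPM, a ratio of 0.963 between E14.5 and E12.5 (0.924 to 1.004). Cenpf measured 374, 380, 264 and 348 CPM (ratio 0.916). Both dipped at E13.5 and were close to their E12.5 level at E14.5. Birc5 had a ratio of 1.05, Tpx2, a spindle assembly factor, of 1.01, Hmmr of 0.961, Mki67 of 0.869 and Cenpe of 0.600. Bub1 measured 84.2, 82.5, 115 and 213 CPM and was 2.58-fold higher at E14.5 (2.39 to 2.80). Its share of cells with a UMI at 3000 UMIs went from 22.5% at E12.5 to 45.1% at E14.5. That share was 1.74% in the gonadal epithelium of E14.5. The share for Ccnb1 went from 44.96% to 2.10%, which is at the 2.38% of the epithelium of E14.5. At E14.5 the median depth before thinning was 10424 UMIs in G2/M-high and 9971 UMIs in other germ cell-like cells.

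Among the S phase members, Tyms, thymidylate synthase, fell furthest. It measured 152, 152, 56.6 and 12.1 CPM, 12.6-fold lower (10.53 to 15.1). Ung was 6.73-fold, Mcm7 6.12-fold (5.39 to 6.96), Mcm2 5.72-fold and Mcm3 4.17-fold lower, and Pcna, Rrm1, Rrm2, Mcm6, Cdc6 and Mcm4 were between 3.1-fold and 4.11-fold lower. Mcm5 did not follow the other helicase subunits: it measured 152, 156, 128 and 129 CPM, a ratio of 0.828 (0.771 to 0.890). Its share of cells with a UMI was 32.9% at E12.5 and 30.5% at E14.5, where Pcna went from 31.3% to 8.10%. Gins2 (17.8 and 22.5 CPM) and Slbp (367 and 289 CPM) also stayed within 2-fold. Kif11, the spindle motor (2.13-fold), and Cdc45 (2.10-fold) lay just inside the threshold and Cenpe (ratio 0.600) just outside it. Of the G2/M members with a promoter window, a CHR match was present in 8 of 10 that were lower and in 5 of 7 that were not.

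**Figure D4:**
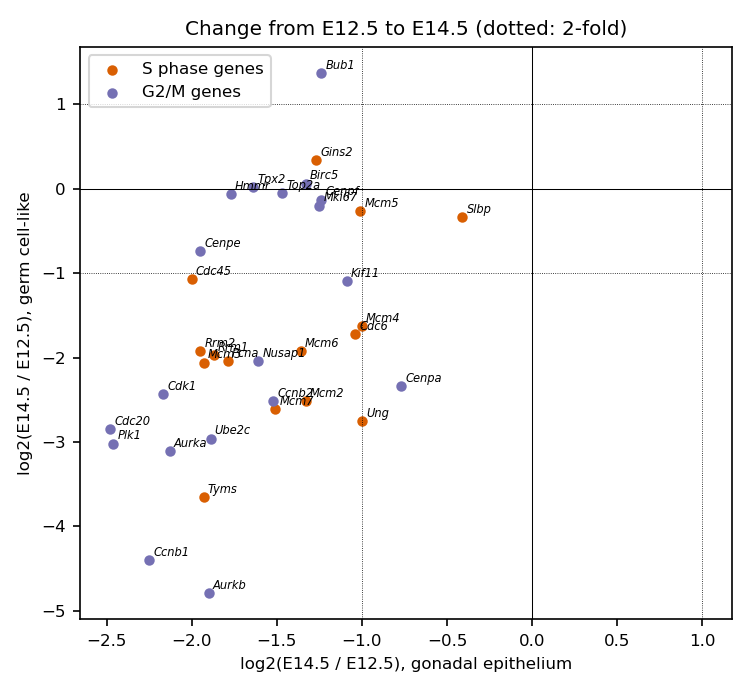
log2 ratio of E14.5 to E12.5 for each member in germ cell-like cells (vertical) against the same ratio in the gonadal epithelium (horizontal). Bub1 sits at 1.37 in germ cell-like cells and -1.24 in the epithelium, and Ccnb1 at -4.40 in germ cell-like cells.

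The share of high cells in the germ line moved in the same way. Starting with E11.5, the S-high share by stage was 74.2% (68.9 to 79.1), 66.2% (62.1 to 70.1), 36.4% (33.8 to 39.0) and 9.06% (7.39 to 10.96). The G2/M-high share was 89.6% (85.6 to 92.8), 85.5% (82.3 to 88.3), 64.0% (61.4 to 66.6) and 52.5% (49.4 to 55.6). Cells high for both groups made up 66.2%, 54.5%, 23.9% and 4.29%. At E14.5 32.7% of the cells held 4 or 5 UMIs of the G2/M members and so lay next to the threshold, which makes this share depend on it: the G2/M-high share fell by 33.0 percentage points from E12.5 to E14.5, but fell by 12.7 where 3 UMIs made a cell high and fell by 8.90 at a depth of 5000 UMIs. The S-high share fell by 57.1 points, and fell by 28.9 where 8 UMIs were asked for. The G2/M-high share of E14.5 rests on the members that stayed: Top2a was detected in 68.4% of these cells and Cenpf in 59.3%, and Ube2c, detected in 64.1% at E12.5, in 11.7%. A G2/M-high germ cell-like cell of E14.5 is thus not shown to be a dividing cell by this measure.

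Stra8, the retinoic acid-induced gene of meiotic entry, and Sycp3, a synaptonemal complex gene, were used to order the germ cell-like cells of E14.5 at 3000 UMIs. The classes were 550 Stra8-positive cells, 438 cells without Stra8 that held at least 3 UMIs of Sycp3, and 61 cells with neither. The S-high share was 11.1%, 6.85% and 6.56% and the G2/M-high share 51.8%, 54.3% and 45.9%, with overlapping intervals between the first 2 classes for both shares. The S phase members summed to 863 CPM (840 to 888) in Stra8-positive and 668 CPM (644 to 692) in Sycp3-high cells, with intervals apart. The G2/M members summed to 1637 and 1654 CPM. Between Sycp3-high and Stra8-positive cells 3 of 29 members compared were lower (3.29% of all genes), namely Cenpa, 3.38-fold, with 22.5 against 76.0 CPM, Tyms, 2.30-fold, and Rrm1, 2.10-fold. Top2a (422 and 418 CPM), Mcm5 (133 and 128 CPM) and Bub1 (234 and 206 CPM) were close. Within Stra8-positive cells, from E12.5 to E14.5, 22 of 34 members were lower (20.5% of all genes). In the other direction 1 member was higher, and the share of all genes is not given.

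In epithelial and stroma-like cells most other G2/M members were detected more often in cells that held Top2a, and in germ cell-like cells most were not. Cells of each class were split by whether they held a UMI of Top2a after thinning to 3000 UMIs, and the share holding a UMI of each of the other 18 G2/M members was compared. In the gonadal epithelium the median ratio of these shares, Top2a-positive over Top2a-negative, was 2.04, 8.77, 10.7, 8.11 and 7.68 by stage, starting with E10.5, and 13.8 in Induced D6. Genes were counted where the interval of the Top2a-positive share lay wholly above that of the other share. These were 14 of 18 genes at E10.5, 18 at E11.5, E12.5 and Induced D6 and 17 at E13.5 and E14.5. In germ cell-like cells the median ratio was 0.972, 1.02, 1.09 and 0.959 at the 4 stages starting with E11.5. There 0, 0, 1 and 2 of 18 genes were counted, namely Tpx2 at E13.5, and Cenpe and Bub1 at E14.5. Intervals apart in the other direction were not counted, and the ratios of germ cell-like cells at E14.5 ran from 0.386 to 1.73. Ccnb1 was present in 44.0% of 259 Top2a-positive and 6.14% of 1124 Top2a-negative epithelial cells of E11.5, and in 50.5% of 208 and 49.5% of 91 germ cell-like cells of the same library. These ratios describe cells of 1 library each, and shares near 100% limit how far a ratio can rise. The share of Top2a-positive cells was itself high in germ cell-like cells, 68.3% at E12.5, and was 48.6% in the E10.5 epithelium. The part of this share in the ratios was not tested. In the E10.5 epithelium Cenpf was present in 51.1% of 233 positive against 20.7% of 246 negative cells. In germ cell-like cells of E12.5, the corresponding shares were 60.6% and 59.2%.

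**Figure D5:**
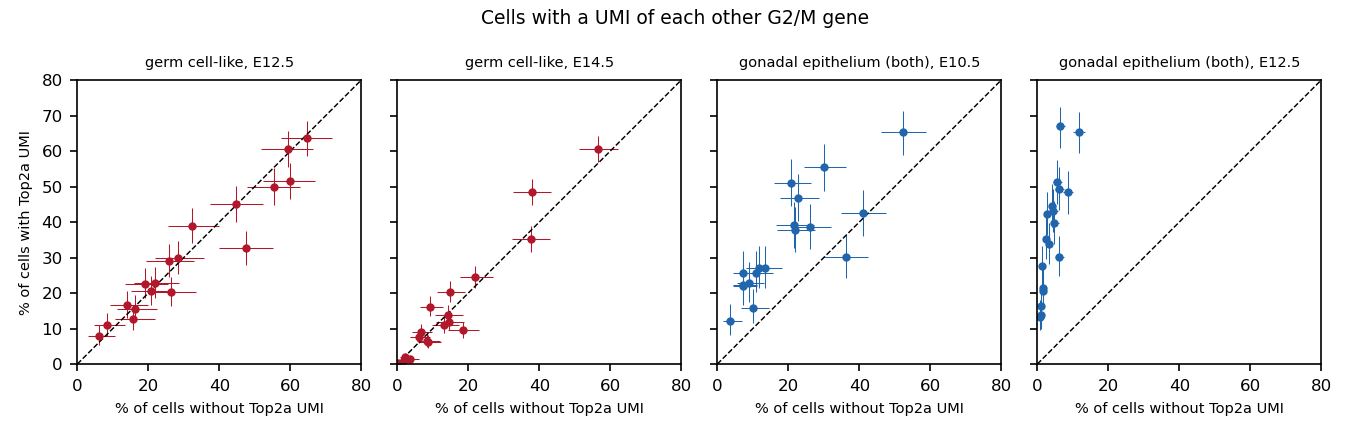
Share of cells (percent) with a UMI of each of the other 18 G2/M members among Top2a-positive cells (vertical) and Top2a-negative cells (horizontal), thinned to 3000 UMIs, in germ cell-like cells of E12.5 and E14.5 and gonadal epithelium of E10.5 and E12.5, with the dashed line at equality. The germ cell-like points lie along the line, and the epithelial points of E12.5 lie above it.

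The difference was also present when 1 class of somatic cells was taken at a time. In coelomic-like cells the median ratio was 3.81 (E11.5), 3.88 (E12.5) and 5.27 (E14.5), and in stroma-like cells it was 4.18, 6.89, 4.90 and 4.88 by stage. Within Stra8-positive germ cell-like cells it was 1.07, 1.05 and 0.930 at the last 3 stages. Thinning to 5000 UMIs gave 1.02, 1.08, 1.08 and 0.798 in germ cell-like cells by stage. The S phase members separated epithelial cells less, but germ cell-like cells no less, than the G2/M members did: with Rrm2 in place of Top2a and the other 14 S phase members, the median ratio was 1.05, 1.13, 1.32 and 1.26 in germ cell-like cells and 1.28 to 2.01 in the epithelium of the 6 libraries.

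Summed over the gonadal epithelium, no compared member of Induced D6 differed 2-fold from E11.5, although the coelomic-like cells alone held fewer G2/M-high cells. The G2/M-high share was 15.5% (14.4 to 16.8) against 22.6%, and the S-high share 15.4% (14.2 to 16.6) against 26.9%. Induced D6 minus E11.5, the difference in G2/M-high cells was -7.03 percentage points, and lay between -2.67 and -11.3 points over the alternative settings. Of 33 members compared, 0 were 2-fold lower (4.21% of all genes), and 3 were lower where classes came from marker scores. In the other direction 0 were higher, and the share of all genes is not given. Of the 33, 28 had log2 ratios below 0, with a median of -0.37 against 0.11 for all genes. Rrm2 measured 67.3 CPM in Induced D6 and 108 CPM at E11.5, a ratio of 0.622 (0.584 to 0.662). The ratio was 0.539 for Cenpe, 0.604 for Bub1, 0.616 for Tyms, 0.979 for Plk1 and 1.19 (1.10 to 1.29) for Pcna, the highest of the members. Coelomic-like cells made up 2390 of the 3613 epithelial cells in Induced D6 and 563 of 1391 at E11.5, so the 2 sums differ in makeup. Within coelomic-like cells the G2/M-high share was 22.4% (20.8 to 24.2) in Induced D6 against 43.1% at E11.5, and Top2a measured 162 against 297 CPM. Of 34 members 6 were 2-fold lower in these cells (3.72% of all genes) and all 34 had log2 ratios below 0, with a median of -0.69. The count was 6 or 7 under 5 of the other ways of making the classes and 16 with marker scores. In supporting-like cells 18 of 30 members were lower (4.94% of all genes), 17 of them G2/M genes, but this count was 0 with no doublets removed, 0 with cell cycle scores regressed out, 1 at resolution 2 and 3 to 7 in the remaining ways, so it rests on how the classes were made. Against E14.5, 25 of 32 members were higher in Induced D6 (18.7% of all genes).

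The split between the 2 epithelial classes was also present in the culture. In Induced D6, 27 of 33 members were lower in supporting-like than in coelomic-like cells, 8 of 14 S phase and all 19 G2/M genes, where 7.90% of all genes were lower. Cenpf measured 5.02 against 118 CPM, 23.4-fold lower, Top2a 13.9 against 162 CPM, 11.7-fold, and Mki67 4.91 against 45.3 CPM, 9.23-fold. The size of these differences rests on how the classes were made: over the 7 ways Cenpf was 6.09-fold to 50.4-fold, Top2a 3.65-fold to 30.95-fold and Mki67 4.23-fold to 32.5-fold lower, and 23 to 29 members were called. Mcm6 (1.34-fold), Slbp (1.19-fold) and Ung (1.03-fold) differed little. The G2/M-high share was 1.98% in supporting-like and 22.4% in coelomic-like cells, and ranged over 7 ways of making the classes from 0.262% to 4.45% and from 16% to 25.2%. A coelomic-like cluster of 447 cells, with 6 of the 14 coelomic markers, was led by Cenpf, Top2a, Plk1 and Ube2c. In stroma-like cells 9 of 34 members were lower in Induced D6 than at E11.5, 7 S phase and 2 G2/M genes (6.25% of all genes). An unnamed cluster of 166 cells of Induced D6 was led by Mki67, Hmmr, Nusap1 and Top2a. It carried 4 of the 16 stroma markers and is counted in none of these classes. Unnamed cells as a whole held 9.48% G2/M-high cells in Induced D6 and 10.9% at E11.5. The effect of leaving them out was not tested.

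The other genes of the same processes were counted from 3 lists: 48 other replication genes, 60 other mitosis genes and 20 transcription regulators of the cell cycle. In the gonadal epithelium from E11.5 to E14.5, 29 of 42 replication and 42 of 50 mitosis genes compared were lower (14.2% of all genes) and none was higher (7.99% of all genes), led by Orc1 (5.42-fold) and Chaf1b (5.38-fold) and by Pbk (10.7-fold) and Kif20a (6.63-fold). Of 11 regulators 1 was lower, E2f5. In germ cell-like cells from E12.5 to E14.5, 19 of 46 replication genes were lower and 5 higher, 25 of 56 mitosis genes were lower and 1 higher, and 4 of 14 regulators were lower and 2 higher, where 22.3% of all genes were lower and 27.8% higher. Ccne2, cyclin E2, rose from 11.54 to 299 CPM, 25.9-fold (21.5 to 31.4), and Gins3, a GINS subunit like Gins2, rose 7.30-fold. Rnaseh2a, a subunit of the ribonuclease that removes ribonucleotides from DNA, was 11.95-fold lower, and Cdt1, the origin licensing factor, 5.35-fold. Bub3, the checkpoint partner of Bub1, was 11.4-fold lower (117 to 10.2 CPM), and Incenp, which anchors Aurkb, was 6.74-fold lower. Mybl2, the activating subunit of MMB, was 6.85-fold lower and E2f8 7.46-fold, while Lin9, a MuvB core subunit, was 2.89-fold and E2f4 2.28-fold higher.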

How the data were processed

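The authors deposited raw UMI counts per gene and cell barcode for each of the 6 libraries, with no normalization. Per the submitters' processing notes these were made with Cell Ranger 3.0.2 on mm10. How cells were called is not stated in these sources.

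Kept cells had 500 or more genes and a mitochondrial share of no more than 10%, and the highest Scrublet scores (scanpy 1.11.5) were removed up to 0.8% per 1000 cells. Each library was clustered alone (2000 variable genes, 30 components, 15 neighbours, Leiden resolution 1) with 223 cell cycle genes left out. Clusters were named from 19 marker sets by scoring rules set after the data were seen. UMIs were summed by class and given as CPM, with exact Poisson intervals, exact conditional binomial intervals for ratios and Clopper-Pearson intervals for shares, all for counting error. Captured at 3′ ends, CPM compares a gene across cells and not genes with each other. With 1 library per group no test was run. Values were named for the members listed as leads, for the 3 largest ratios in each direction and for members against their list, and for the 2 largest in the other lists. Thresholds and calls were tested on simulated data. The members and lists were chosen with earlier results of these data known. The Top2a comparison was added after the data were seen. Clustering and class settings, thinning depth, thresholds and filters were varied as alternatives.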

Additional observations from a re-analysis of the deposited data

Results flagged for a closer look

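Bub1 moved in opposite directions in 2 classes of the same libraries between E12.5 and E14.5. Its log2 ratio was 1.37 in germ cell-like cells and -1.24 in the gonadal epithelium, a difference of 2.61. With 1 library per stage this difference was not tested.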

How the results depend on the processing

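No paired analysis was possible because each group is 1 library. Of 127 alternative values for the 11 main results, 100 stayed within 1.5 times the count or within counting error, and no direction reversed. The rest follow. The fall in G2/M-high epithelial cells from E11.5 to E14.5 (-16.7 points) was -21.8 with 3 UMIs making a cell high, -13.1 with 8, and -19.4 at 5000 UMIs. The fall in germ cell-like cells from E12.5 to E14.5 (-33.0) was -12.7 with 3 UMIs, -44.1 with 8, -39.9 at 2000 UMIs and -8.90 at 5000 UMIs, so its size rests on threshold and depth. The S-high fall there (-57.1) was -50.0 with 3 UMIs, -28.9 with 8 and -39.0 at 2000 UMIs. The G2/M-high difference between Induced D6 and E11.5 (-7.03) was -10.9 with 3 UMIs, -4.53 with 8, -4.10 with all barcodes kept, -11.3 with classes from marker scores, -3.45 at resolution 2, and -2.67 with cell cycle scores regressed out. The S-high difference (-11.5) was -4.82 with 8 UMIs and -7.11 at 2000 UMIs. Members lower in Induced D6 (0) became 6 at 1.5-fold, 1 at 5 CPM, 1 with no filter and 3 with marker scores. Members higher in germ cell-like cells at E12.5 (22) became 8 at 3-fold. Members lower there at E14.5 (1) became 0 at 3-fold, 2 at 5 CPM, 2 with no filter and 0 with marker scores. Regressing out cell cycle scores, leaving out shared barcodes and recounting the supporting-like and coelomic-like classes were chosen after seeing the data. Each class sum is 1 library, so no library could be left out. For these changes the cause was not tested.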
